A study of Homo sapiens with 18 samples.

Results

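The genes of the Hippo pathway and the genes known as targets of its effector YAP were followed in HCT116 cells, a human colorectal carcinoma line of epithelial type, between low and high density. The 32 genes were chosen by name, out of 38055 genes in the table, and fall into 16 kinases, adaptors and scaffolds, 7 YAP/TEAD factors and 9 target genes; all 32 were listed and all 32 could be tested. Whole transcriptome RNAseq had been done on wild-type cells that were left to grow for 3 days, to 50% confluency, or for 5 days, to 250% confluency, a figure worked out from cell number and growth area. Each day had 3 libraries, labelled as biological replicates, and both days shared the same McCoy's 5A medium with 10% serum and no other treatment. How separate the replicate cultures were is not stated, so p-values measure the spread between these libraries. Day 7 was not analysed here. Time in culture and density rose together, so their effects cannot be told apart.

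The Hippo pathway is a kinase chain that restrains growth in epithelia. The kinases MST1 and MST2, named STK4 and STK3 here, act with the adaptor SAV1 on the kinases LATS1 and LATS2, which act with MOB1 proteins to phosphorylate the coactivators YAP1 and TAZ, the latter named WWTR1 here. Phosphorylated YAP1 and TAZ are kept out of the nucleus, whereas the free proteins enter it and bind TEAD factors on DNA. Much of this control acts on protein, and cell contact in crowded cultures is one of its best known inputs. The RNA values described below do not measure phosphorylation, protein or location.

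The recovered reads on genes came to between 27470978 and 56689369 per library on day 3, where replicate 3 was the shallowest and replicate 2 the deepest, and to between 31403756 and 33661896 on day 5. Day 3 libraries also differed more among themselves, with a median SD of 0.166 per gene on the log2 scale against 0.11 on day 5 (n = 3 each). The 10 most abundant genes took 11.8% to 12.9% of the reads on day 3 and 8.73% to 9.03% on day 5. Of 6 epithelial markers, EPCAM (7227 and 7236 normalized reads on average on day 3 and day 5), KRT8, KRT18, KRT19 and CDH1 were well detected, and VIL1 was close to 0 in all libraries. CDH1 and the 3 keratins rose on day 5, by log2 fold changes of 2.63 for CDH1 (limma, adjusted p = 0.0001) and 0.93 to 1.98 for the keratins (limma, adjusted p up to 0.00412), while EPCAM had 0.00 with a 95% interval of -0.18 to 0.18. Among markers of other cell types, the leukocyte gene PTPRC did not exceed 2.14 normalized reads and PECAM1 and LUM were not listed. The fibroblast collagen gene COL3A1 had 8.04 to 31.1, but COL1A1 had 566, 512 and 483 on day 3 and 1092, 1156 and 1138 on day 5. Summed over the 3 of these 5 markers that were listed, the libraries had 496 to 579 on day 3 and 1102 to 1169 on day 5; the part of these markers in the results below was not tested.

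Most of the pathway was higher in the dense cultures. Values are normalized reads, that is, reads per gene divided by 1 scaling factor per library, and a gene was called changed when limma on log2(value + 1) gave a Benjamini-Hochberg adjusted p under 0.05 over all 20129 genes tested. Of the 32 genes, 20 were higher and 3 lower on day 5, and 9 did not pass. ANKRD1, among the 3, met the filter on low values (10 normalized reads in 3 libraries) through day 3 alone, so that its direction was fixed by the filter. In this fit only STK3 and MOB1A were lower in a test that could go either way. Without a filter ANKRD1 was lower (limma, adjusted p = 0.03), and STK3 and MOB1A did not pass (limma, adjusted p = 0.0543 and 0.0665). Change was widespread in these cells: 56.9% of all genes tested passed, 29.3% higher and 27.6% lower, against 71.9%, 62.5% and 9.38% of the 32 genes. The median log2 fold change was 0.60 over the 32 genes and 0.01 over all genes tested. For 26 of the 32 the libraries of both days did not overlap, which was the case for 65.0% of all genes. At least a 2-fold rise was called for 8 of the 32 (all genes, 10.2%) and at least a 2-fold fall for ANKRD1 alone (all genes, 7.60%), with the direction fixed as above. Changes are relative to the other genes of a bulk library, scaled by a factor that is not its total of reads. In such a library fewer cells that express a gene and less RNA per cell cannot be told apart.

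**Figure D1:**
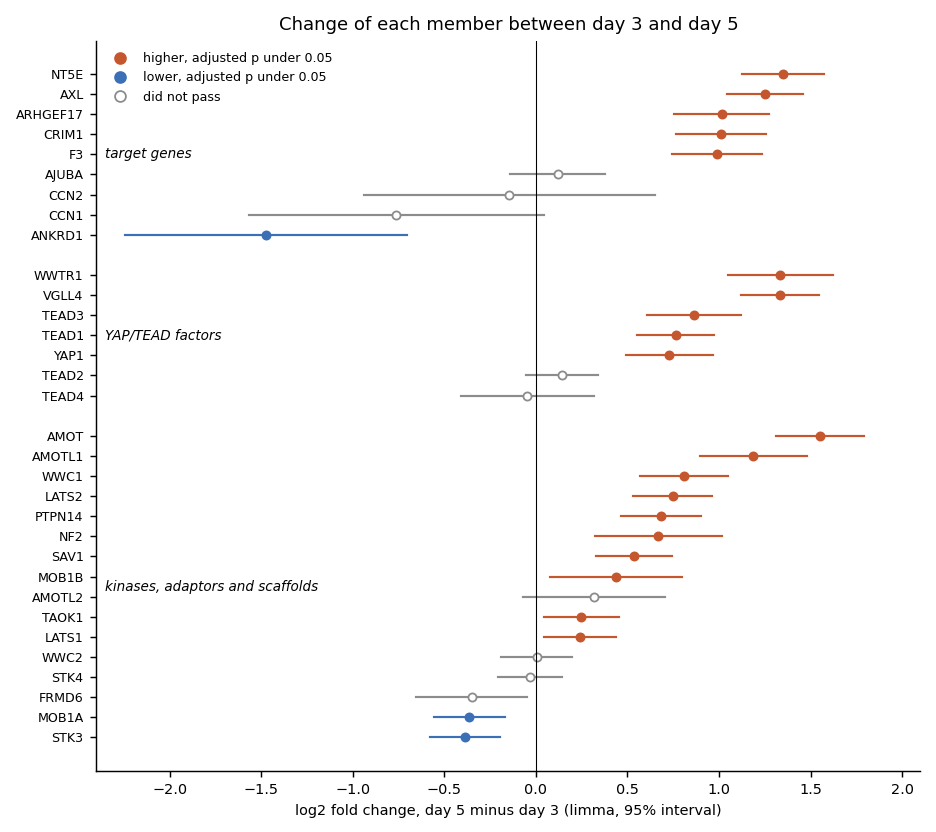
Log2 fold change of each of the 32 genes, day 5 minus day 3, from limma on log2(normalized reads + 1), with its 95% interval (n = 3 libraries per day), sorted within the 3 roles. Filled points passed an adjusted p under 0.05; 20 genes lie to the right as calls, AMOT with the largest value at 1.55, and ANKRD1, whose direction the filter fixed, MOB1A and STK3 are called to the left.

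The core kinases changed in both directions or did not pass. STK3, the gene of MST2, had 2326, 2368 and 2304 on day 3 and 1729, 1909 and 1721 on day 5. All 3 day 5 libraries lay below all 3 day 3 libraries, and STK3 fell, with -0.39 on the log2 scale with a standard error (SE) of 0.08 (limma, adjusted p = 0.007). Its paralogue STK4, the gene of MST1, had 3692, 3603 and 3646 on day 3 and 3442, 3567 and 3690.5 on day 5. These overlapped, the log2 fold change was -0.03 and its 95% interval was -0.21 to 0.14, so a change of the size seen for STK3 lies outside that interval. Per length the paralogues were close on day 3, at 5.16 reads per kilobase scaled to library depth (RPKM, computed here) for STK3 and 6.14 for STK4, and stood at 4.13 and 6.27 on day 5. The log2 ratio of STK3 to STK4 within each library was -0.27, -0.21 and -0.27 on day 3 and -0.60, -0.51 and -0.71 on day 5.

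Ratios of this kind are the same however libraries are scaled against each other, and 9 were compared. For all 9 the libraries of both days did not overlap. Taken singly, 65.0% of all genes tested did not overlap, and no such share was computed for other pairs of genes. Each ratio gave a two-sided exact permutation p = 0.1, the smallest possible with 3 libraries a day. This p stayed at 0.1 when adjusted for the 9 comparisons. No ratio could therefore pass 0.05 in this design.

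Of the LATS kinases, which phosphorylate YAP1 and TAZ, LATS2 rose. It had 521, 544 and 602 on day 3 and 965, 891 and 942 on day 5, a log2 fold change of 0.75 (SE 0.09, limma, adjusted p = 0.000883). LATS1 had 2016, 2090.0 and 1887 on day 3 and 2279.6, 2329 and 2476 on day 5, also without overlap, with a log2 fold change of 0.24 (SE 0.08, limma, adjusted p = 0.0441). This call was lost whichever single library was left out (limma, adjusted p from 0.0687 to 0.128). LATS1 was the more abundant of the pair per length, with 6.57 RPKM against 2.75 on day 3 and 8.10 against 4.84 on day 5. The log2 ratio of LATS2 to LATS1 went from -1.36, -1.34 and -1.05 on day 3 to -0.64, -0.79 and -0.80 on day 5, a difference of 0.51. LATS2 is itself often listed among the genes that YAP raises.

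The adaptors also changed in both directions. SAV1, which joins the MST kinases to their substrates, had 1849.9, 2051 and 1934 on day 3 and 2773, 2694 and 2997 on day 5. The days did not overlap and the log2 fold change was 0.54 (SE 0.08, limma, adjusted p = 0.00254). MOB1A and MOB1B encode closely related proteins that bind and activate LATS. MOB1A had 8884, 9540.2 and 9257 on day 3 and 6993, 6925 and 7616 on day 5 and fell on day 5, with a log2 fold change of -0.36 (SE 0.08, limma, adjusted p = 0.0095). MOB1B had 2147, 2501 and 1762 on day 3 and 2615, 2949.6 and 3037 on day 5, higher on day 5 and without overlap, with a log2 fold change of 0.44 (SE 0.15, limma, adjusted p = 0.0454). That call held without day 3 replicate 2 and was lost without any other single library (limma, adjusted p from 0.0573 to 0.118). Per length, MOB1A was the more abundant, with 39.9 RPKM against 6.81 on day 3 and 32.5 against 9.49 on day 5. The log2 ratio of MOB1B to MOB1A was -2.50, -2.38 and -2.84 on day 3 and -1.87, -1.68 and -1.78 on day 5, a difference of 0.80. Without a filter on low values, the falls of STK3 and MOB1A did not pass (limma, adjusted p = 0.0543 and 0.0665).

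TAOK1, a kinase that can activate the MST kinases, had 8018, 8531 and 7754 on day 3 and 9201, 9480.0 and 10205 on day 5. The days did not overlap. Its log2 fold change of 0.25 (SE 0.08, limma, adjusted p = 0.0431) did not pass when any one library was left out (limma, adjusted p from 0.0625 to 0.126).

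Of 4 upstream scaffolds at the membrane, NF2 and WWC1 were higher and WWC2 and FRMD6 did not pass. NF2, the gene of merlin, which brings LATS to the membrane, had 2087, 2513 and 2966 on day 3 and 4189, 3816 and 3915 on day 5. NF2 rose by 0.67 (SE 0.14, limma, adjusted p = 0.00813) on the log2 scale. WWC1, the gene of KIBRA, a partner of merlin, had 1736, 1759 and 2051 on day 3 and 3336, 3047 and 3321 on day 5, and rose by 0.81 (SE 0.10, limma, adjusted p = 0.000963). For both genes each day 5 library exceeded each day 3 library. WWC2, the paralogue of WWC1, had 2189, 2299.6 and 2180.3 on day 3 and 2095, 2283 and 2324 on day 5, which overlapped, with a log2 fold change of 0.01 and an interval of -0.19 to 0.20. Per length WWC2 led WWC1 on day 3 (6.20 against 5.09 RPKM), and WWC1 led on day 5 (9.35 against 6.51 RPKM). The log2 ratio of WWC2 to WWC1 was above 0 in each day 3 library (0.35, 0.40 and 0.10) and below 0 in each day 5 library (-0.66, -0.41 and -0.50). FRMD6, the human relative of the fly scaffold Expanded, had 797, 864 and 1042 on day 3 and 729, 651 and 730.0 on day 5. These did not overlap, with lower values on day 5, but the log2 fold change of -0.35 just missed the threshold (limma, adjusted p = 0.0516); it passed on library totals and in edgeR and DESeq2 on the recovered reads, with adjusted p = 0.0194, 0.00226 and 0.00299.

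The angiomotins, which bind YAP1 and TAZ at junctions and hold them out of the nucleus, gave the largest changes in this group. AMOT had 193, 237 and 218 on day 3 and 617, 630.2 and 651 on day 5, a 2.93-fold difference of the means. Its log2 fold change of 1.55 (SE 0.10, limma, adjusted p = 0.000202) was the largest of the 32. AMOTL1 had 1541, 1859 and 2039.9 on day 3 and 4105, 4016 and 4193 on day 5, and rose by 1.19 (SE 0.12, limma, adjusted p = 0.000521) on the log2 scale. AMOTL2, which is also a known target of YAP, had 732, 906 and 1060.4 on day 3 and 1243, 1018 and 1075 on day 5. Here day 3 replicate 3 lay inside the range of day 5, and the log2 fold change of 0.32 did not pass (limma, adjusted p = 0.138, interval -0.07 to 0.71), although it did on library totals, in edgeR and in DESeq2 (adjusted p = 0.0158, 0.0169 and 0.0327). The makeup of the family differed between the days. AMOTL1 held 52.5% ± 0.654 (SD, n = 3) of the angiomotin reads per kilobase on day 3 and 62.5% ± 1.49 (SD, n = 3) on day 5. AMOTL2 went from 40.1% ± 1.38 to 26.2% ± 2.01, and AMOT from 7.41% ± 0.768 to 11.3% ± 0.519. The log2 ratio of AMOTL2 to AMOT was 2.32, 2.33 and 2.67 on day 3 and 1.41, 1.09 and 1.12 on day 5, a difference of -1.24, and that of AMOTL1 to AMOT differed by -0.37.

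PTPN14, a phosphatase that binds YAP1 and is itself listed among its targets, had 3040.4, 3466 and 3528 on day 3 and 5249, 5258 and 5579 on day 5. The days did not overlap, and it rose by 0.68 (SE 0.09, limma, adjusted p = 0.00129) on the log2 scale. In all, 10 of the 16 kinases, adaptors and scaffolds were called higher, 2 lower and 4 did not pass, with a median log2 fold change of 0.38. Of all genes tested, 29.3% were called higher and 27.6% lower, with a median of 0.01.

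The genes of the effectors themselves were higher on day 5. YAP1, on chromosome 11 from 102110447 to 102233424 (GRCh38, plus strand), had 3722, 4173 and 3473 on day 3 and 6041, 6211 and 6558 on day 5. WWTR1, on chromosome 3 from 149517235 to 149736714 (minus strand), had 1336, 1545 and 1574 on day 3 and 3406, 3639 and 4218 on day 5. Neither overlapped between the days. YAP1 rose 1.65-fold, with a log2 fold change of 0.73 (SE 0.10, limma, adjusted p = 0.00129), and WWTR1 2.53-fold, with 1.34 (SE 0.12, limma, adjusted p = 0.000365). YAP1 stayed the more abundant per length, at 16.8 against 4.94 RPKM on day 3 and 28.9 against 13.1 on day 5. The share of WWTR1 in the pair went from 22.9% ± 2.27 (SD, n = 3) to 31.1% ± 1.46 (SD, n = 3). Within libraries the log2 ratio of WWTR1 to YAP1 was -1.88, -1.84 and -1.55 on day 3 and -1.23, -1.18 and -1.04 on day 5, a difference of 0.61.

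The 4 TEAD genes encode the DNA-binding partners of YAP1 and TAZ, and 2 of them passed (all genes, 56.9%). TEAD1, the most abundant per length on both days, had 6944, 7726 and 7645 on day 3 and 11988, 12559 and 13317 on day 5. TEAD3 had 443, 511 and 537 on day 3 and 949, 838 and 924 on day 5. Both were higher in every day 5 library, with changes on the log2 scale of 0.76 (SE 0.09, limma, adjusted p = 0.000746) and 0.86 (SE 0.11, limma, adjusted p = 0.000983). TEAD2 had 1114, 1185 and 1267 on day 3 and 1332, 1292 and 1308 on day 5; these did not overlap, but the log2 fold change of 0.14 did not pass (limma, adjusted p = 0.179, interval -0.05 to 0.34), except on library totals (adjusted p = 0.0354). TEAD4 had 489.9, 571 and 702 on day 3 and 613, 537 and 543 on day 5, with overlap, a log2 fold change of -0.05 and an interval of -0.41 to 0.32; its sign turned on library totals (0.02) and without day 3 replicate 3 (0.09). Of the TEAD reads per kilobase, TEAD1 held 45.9% ± 1.7 (SD, n = 3) on day 3 and 54.5% ± 2.05 on day 5, and TEAD3 10.8% ± 0.222 and 13.7% ± 0.759. TEAD2 went from 26.4% ± 0.608 to 20.3% ± 0.553 and TEAD4 from 17.0% ± 1.80 to 11.5% ± 0.952. On the log2 scale, the ratio of TEAD4 to TEAD1 was -1.59, -1.52 and -1.21 on day 3 and -2.06, -2.31 and -2.38 on day 5.

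**Figure D2:**
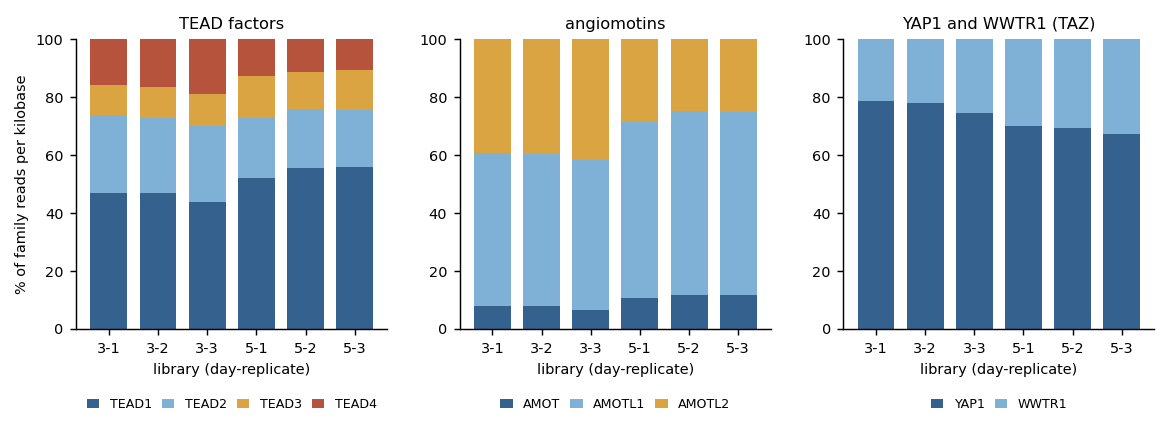
Share of each gene in the reads per kilobase of its family (vertical axis, percent) in each of the 6 libraries, named by day and replicate, for the TEAD factors, the angiomotins and the pair YAP1 and WWTR1. TEAD1, AMOTL1 and WWTR1 hold a larger share in every day 5 library than in any day 3 library.

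VGLL4, which competes with YAP1 for TEAD and so opposes it, had 671, 708 and 710.2 on day 3 and 1630.0, 1894 and 1760.3 on day 5. It rose 2.53-fold without overlap, by 1.34 (SE 0.09, limma, adjusted p = 0.000211) on the log2 scale. In all, 5 of the 7 factors were called higher and 2 did not pass (all genes, 29.3% higher). Their median log2 fold change was 0.76 (all genes, 0.01), and the gene of the competitor rose with the genes of the coactivators. The log2 fold changes of VGLL4 and WWTR1 were equal to the second decimal, and that of YAP1 was lower.

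Of all genes tested, 56.9% passed, 29.3% higher and 27.6% lower, and 10.2% were at least 2-fold higher. Of the 9 target genes, 5 were called higher, 4 of them at least 2-fold, 3 did not pass, and ANKRD1 was lower in a test whose direction the filter fixed. CCN2, CCN1 and ANKRD1, the genes most often used as a readout of YAP activity, were not among the 5. CCN2, the gene of CTGF, had 64.1, 101 and 142 on day 3 and 117, 78.2 and 73.5 on day 5, with overlap, a log2 fold change of -0.15 and an interval of -0.94 to 0.65 (limma, adjusted p = 0.72). Without day 3 replicate 3 the sign turned, to 0.12. CCN1, the gene of CYR61, had 562, 809.8 and 1423 on day 3 and 552, 475 and 506 on day 5. Its day 5 libraries all lay below its day 3 libraries, the closest pair being 552 and 562. The log2 fold change of -0.76 (standard error 0.33) did not pass (limma, adjusted p = 0.0947). On the recovered reads it did, with adjusted p = 0.00184 in edgeR and 0.0483 in DESeq2, as it did on library totals (0.0266), with a variance trend (0.00863) and without day 3 replicate 1 (0.021). Without day 3 replicate 3 it was -0.40 (limma, adjusted p = 0.114). Within libraries the CCN1 to CCN2 ratio on the log2 scale was 2.47, 2.35 and 2.67 on day 3 and 1.57, 1.94 and 2.12 on day 5.

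ANKRD1, the gene of a muscle ankyrin repeat protein, was close to the limit of detection. It had 11.4, 11.1 and 12.8 on day 3 and 6.51, 2.14 and 3.11 on day 5 in normalized reads, which were 13, 18 and 9 reads on day 3 and 6, 2 and 3 on day 5. With the filter it was tested through its day 3 libraries alone, each just above the minimum value of 10, so that it had to be lower on day 5 and its log2 fold change of -1.47 is a description with no test. In the fit of all 38055 genes with no filter the adjusted p was 0.03 (limma). On library totals as log2(CPM + 1), where low values are damped, the log2 fold change was -0.25. With any day 3 library left out it was not tested.

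The other targets were well expressed. AXL, a receptor tyrosine kinase, had 1579, 1707 and 1830.1 on day 3 and 4145, 3999.9 and 4017 on day 5. NT5E, the surface enzyme CD73 that makes adenosine, had 1924, 1970.1 and 2148 on day 3 and 4793, 5084 and 5524 on day 5. CRIM1, a membrane protein that binds growth factors, had 1320.5, 1504 and 1630.2 on day 3 and 3076, 2895 and 2979 on day 5. In all 3 genes the lowest day 5 library was above the highest day 3 library, with log2 fold changes of 1.25, 1.35 and 1.01 (standard errors 0.08, 0.09 and 0.10, limma, adjusted p up to 0.000512). F3, the tissue factor that starts coagulation, had 953, 969 and 882 on day 3 and 1956, 1656 and 1964 on day 5. ARHGEF17 had 478, 542 and 605 on day 3 and 1071, 1124 and 1078 on day 5. Both rose without overlap, by 0.99 (SE 0.10, limma, adjusted p = 0.000538) and 1.01 (SE 0.11, limma, adjusted p = 0.00059) on the log2 scale. AJUBA, a LIM protein that binds and holds LATS, had 767, 932 and 929 on day 3 and 992, 900.3 and 953 on day 5, which overlapped, with a log2 fold change of 0.12 and an interval of -0.14 to 0.38. Per length, NT5E was the most abundant target on both days, at 12.3 and 33.0 RPKM, and ANKRD1 the least, at 0.183 and 0.0639.

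**Figure D3:**
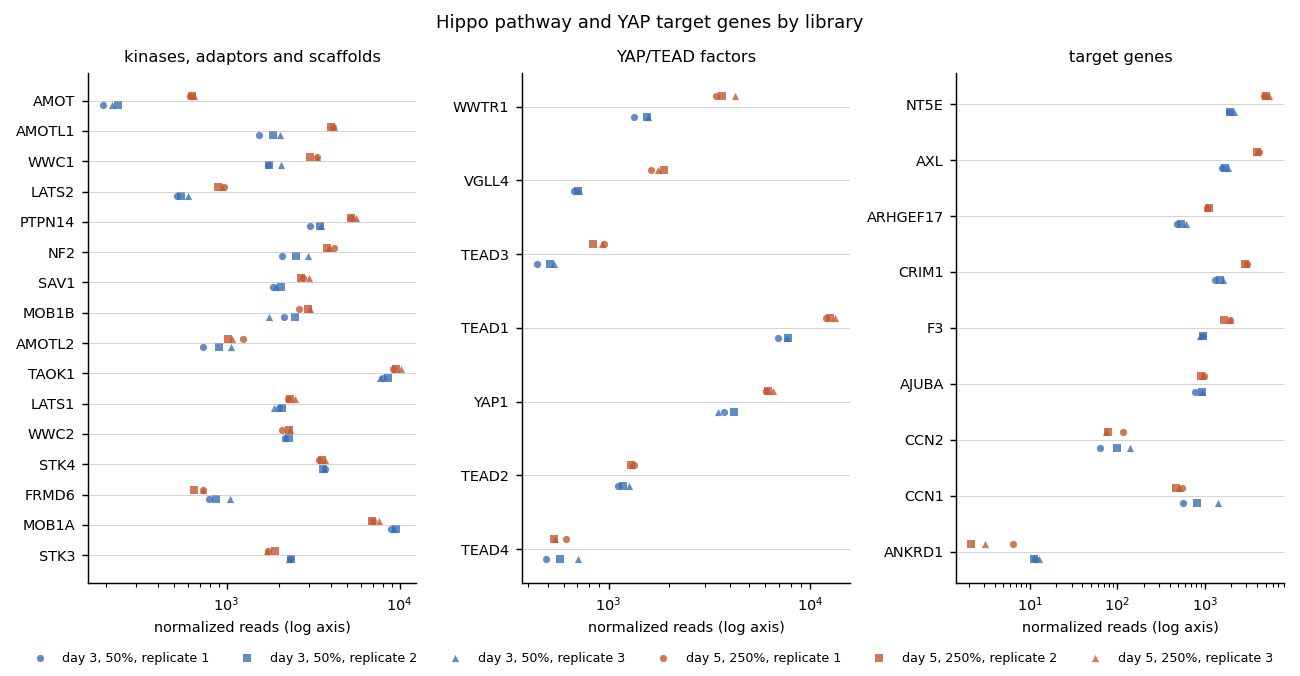
Normalized reads of each of the 32 genes (horizontal log axis) in each library, day 3 in blue and day 5 in orange, with 1 symbol per replicate, in 3 panels by role and sorted by log2 fold change. The 5 targets from NT5E down to F3 are separated by day with day 5 higher, whereas the day 3 points of CCN1 spread from 562 to 1423.

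CCN1 and CCN2 also stood out for their spread on day 3. The SD on the log2 scale was 0.675 for CCN1 and 0.568 for CCN2 on day 3 (n = 3), and 3.88% and 6.36% of all genes tested had a larger one. On day 5 it was 0.109 for CCN1 and 0.361 for CCN2. In both genes day 3 replicate 3 had the highest and replicate 1 the lowest value, an order shared by 18 of the 32 genes and by 32.9% of all genes tested. Over the 32 genes, day 3 replicate 1 was the lowest of its day for 23 (43.9% of all genes tested) and replicate 3 the highest for 19 (49.7% of all genes). Replicate 3 was the shallowest library of that day, and the part of depth or scaling in this order was not tested.

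TEAD factors bind a core of 6 bases, GGAATG, and the 250 bases before the start of each gene were searched for it on both strands, in RefSeq promoters of GRCh38.p14. Windows were given for 26 of the 32 genes, some with several starts. STK3, TEAD1, TEAD4, CCN1, CRIM1 and ARHGEF17 had no window. The core was found in 4 of 8 windows of target genes, in 3 of 20 of kinases, adaptors and scaffolds and in 1 of 11 of YAP/TEAD factors, against 11.9% of all 35116 windows. Windows of CCN2, ANKRD1, AXL and NT5E are shown, the first 2 from genes that were not higher on day 5 and the others from the targets with the largest rise. Each runs 5′ to 3′ along the gene's own strand and ends at the base before the start, and capitals mark the core or its reverse complement, CATTCC.
CCN2, chr6:131951373-131951622, minus strand: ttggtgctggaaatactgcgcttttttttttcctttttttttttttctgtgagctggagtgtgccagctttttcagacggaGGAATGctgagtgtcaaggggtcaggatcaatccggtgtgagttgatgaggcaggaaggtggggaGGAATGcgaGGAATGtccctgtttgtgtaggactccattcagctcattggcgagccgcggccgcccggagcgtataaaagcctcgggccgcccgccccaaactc
ANKRD1, chr10:90921088-90921337, minus strand: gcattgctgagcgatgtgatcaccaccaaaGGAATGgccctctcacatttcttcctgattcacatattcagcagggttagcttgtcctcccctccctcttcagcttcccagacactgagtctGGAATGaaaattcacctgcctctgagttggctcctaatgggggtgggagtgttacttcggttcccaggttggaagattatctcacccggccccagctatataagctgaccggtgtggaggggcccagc
AXL, chr19:41226505-41226754, plus strand: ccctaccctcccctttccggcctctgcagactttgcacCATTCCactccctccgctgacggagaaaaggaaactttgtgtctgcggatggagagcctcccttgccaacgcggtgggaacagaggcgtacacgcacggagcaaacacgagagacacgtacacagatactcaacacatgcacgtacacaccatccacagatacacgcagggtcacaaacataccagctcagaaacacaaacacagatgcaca
NT5E, chr6:85449833-85450082, plus strand: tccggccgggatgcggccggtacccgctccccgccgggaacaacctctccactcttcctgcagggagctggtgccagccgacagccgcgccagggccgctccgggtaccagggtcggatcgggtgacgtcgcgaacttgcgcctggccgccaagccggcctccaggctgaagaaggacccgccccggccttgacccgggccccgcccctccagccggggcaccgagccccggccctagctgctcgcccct
CCN2 held 3 copies, whose first bases lie 169, 104 and 95 bases before the start, and ANKRD1 held 2, at 220 and 128 bases. At least 2 copies were found in 0.940% of all windows. AXL held 1 copy, in the window of the more downstream of its 2 starts and on the other strand, and NT5E and F3 held none. Among the other genes, YAP1, AMOTL2, PTPN14 and AJUBA had 1 copy each and WWC2 had 2. A match of these letters is a description of the window and not a bound site, and the target genes are known as such partly from sites of this kind.

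Other genes of the pathway were looked up in a list of 79, of which 78 were listed and 75 could be tested. Of these, 46 were higher and 9 lower on day 5 and 20 did not pass, where 29.3% of all genes tested were higher and 27.6% lower. Their median log2 fold change was 0.50, against 0.01 over all genes. The 9 lower calls became 3 without a filter on low values, so not all falls named below held in that fit. In the kinase arm, 8 of 14 were higher and 2 lower. MINK1 and TNIK, kinases of the MAP4K family that can stand in for MST, had the largest rises, from 1588, 1701 and 1714 to 4162, 4064 and 4162 normalized reads for MINK1 (1.31 on the log2 scale) and by 1.25 on the log2 scale for TNIK (limma, adjusted p = 0.000174 and 0.00022). STK38L, a kinase close to LATS, and STK26, a more distant relative of MST, fell, with -0.83 for STK38L (limma, adjusted p = 0.000531) and -0.43 for STK26 (limma, adjusted p = 0.0143). Of 11 genes of STRIPAK, the phosphatase complex that removes phosphate from MST, 4 were higher and 4 lower, beside 29.3% and 27.6% of all genes. PPP2R1A and STRN4 rose by 0.98 and 0.75, while MOB4 and the catalytic subunit PPP2CA had -0.83 and -0.61 on that scale (limma, adjusted p up to 0.0029).

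The polarity and adhesion genes had the highest median of these groups, 0.86, with 17 of 21 higher and 4 that did not pass (all genes, 29.3% higher). CDH1, the gene of E-cadherin, had 572, 669 and 672 on day 3 and 3787, 4024 and 4009 on day 5, a log2 fold change of 2.63 (SE 0.09, limma, adjusted p = 0.0001). FAT4, a giant cadherin whose fly relative Fat is upstream of Hippo, had 178, 172 and 155 on day 3 and 734, 931 and 850.1 on day 5. Neither gene overlapped between the days, and FAT4 rose by 2.31 (limma, adjusted p = 0.000156). Among genes of YAP turnover and binding, 7 of 13 were higher and 2 lower, beside 29.3% and 27.6% of all genes. VGLL3, which binds TEAD, had low values of 9.66, 13.6 and 7.09 on day 3 and 60.7, 49.3 and 48.7 on day 5. It would not have met the filter without its day 5 libraries, and when no filter was used it rose by 2.31 on the log2 scale (limma, adjusted p = 0.0042). VGLL3 is kept in the 7 and in the higher calls of the whole list. SFN, the 14-3-3 sigma gene, rose by 1.32 (limma, adjusted p = 0.000707). YWHAQ, another 14-3-3 gene, and FBXW11, part of a ubiquitin ligase that acts on YAP1, fell, with -0.38 (limma, adjusted p = 0.0106) and -0.26 (limma, adjusted p = 0.0342). The call of FBXW11 held without day 3 replicate 1 and was lost without any other single library (limma, adjusted p from 0.0562 to 0.102).

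Of 16 further genes commonly listed as YAP targets that could be tested, 10 were higher, 1 lower and 5 did not pass, with a median of 0.66, beside 29.3% higher and 27.6% lower among all genes. IGFBP3, which binds insulin-like growth factors, had 26.3, 19.8 and 25.5 on day 3 and 191, 262 and 289 on day 5. The days did not overlap, and it rose with a log2 fold change of 3.31 (SE 0.19, limma, adjusted p = 0.00018); IGFBP3 is also known to respond to other signals. BIRC5, the gene of survivin, which cells express mostly in mitosis, had 4503, 4871 and 5850.4 on day 3 and 3737, 3643 and 3865 on day 5 and fell, with a log2 fold change of -0.43 (SE 0.11, limma, adjusted p = 0.0206). This call was lost without day 5 replicate 1 or 2 (limma, adjusted p = 0.0562 and 0.0631).

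**Figure D4:**
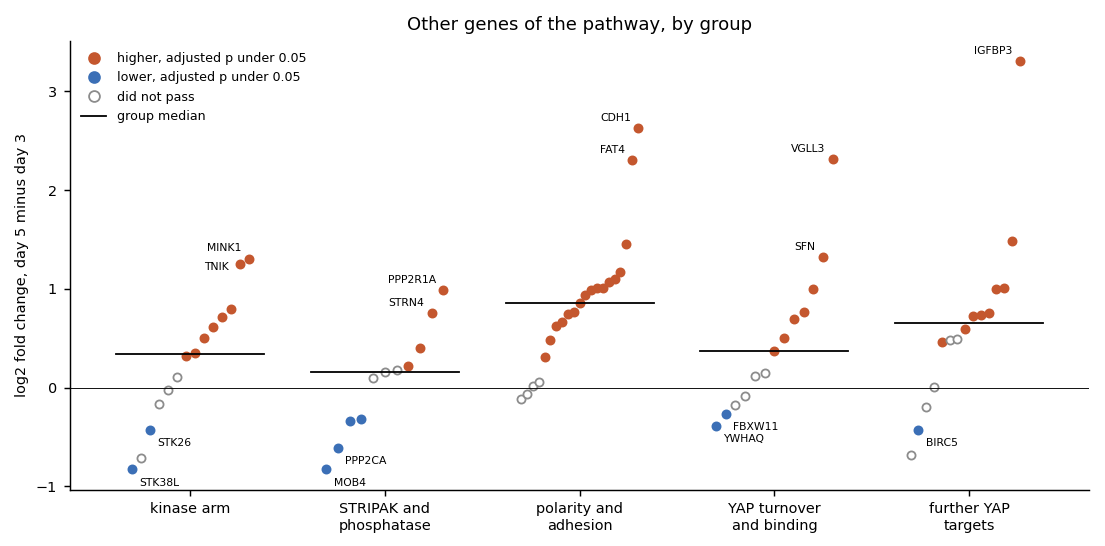
Log2 fold change, day 5 minus day 3, of the other pathway genes that could be tested, without 1 further YAP target that is not reported here, in 5 groups and sorted within each; filled points passed (limma, adjusted p under 0.05), bars are medians over all tested genes of a group, and the genes named in the text are labelled. The median is highest for polarity and adhesion, at 0.86, and lowest for STRIPAK and phosphatase, at 0.16.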

How the data were processed

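The paper's methods describe ribosome-depleted, strand-specific libraries with molecular identifier adapters, trimming and mapping to Ensembl genes of hg38 in CLC Genomics Workbench, and TMM; whether reads were collapsed by identifier is not stated. The deposited signal values per gene could be written as whole reads in every library (100% of values, within 0.01 reads), so that reads could be recovered, and the values are read counts divided by a scaling factor that the authors set per library. The authors' fold changes and p-values, also in the table, were not used. Submitters' processing notes name FastQC 0.11.8 and MultiQC 1.7.

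Day and replicate came from sample titles. Tests had been fixed for either counts or normalized values. limma 3.58.1 (R 4.3.3) was fitted to log2(value + 1), a scale that understates changes of low genes, without covariates. Genes that reached 10 in 3 or more of 6 libraries were fitted. The fit was also run on reads simulated from the means and dispersions of these data, and no result above rests on that run. P-values were adjusted by Benjamini-Hochberg. Alternatives were library totals with log2(CPM + 1), no filter, a pseudocount of 0.1, a replicate block, a variance trend, a 2-fold minimum, leaving out each library, edgeR 4.0.16 and DESeq2 1.42.0 on recovered reads. RPKM used library totals of reads, and exon lengths of GENCODE release 44 by gene identifier, which is not the authors' annotation release. Promoters are RefSeq. Counting error was not modelled apart from the spread between libraries, and it weighs most on genes of few reads such as ANKRD1 and VGLL3.

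The genes and lists were chosen with earlier results of these data known, and no count over them is independent support. All 32 genes are named; of the other list, up to 2 genes per group and direction, those that moved most among called genes without overlap; and the markers; 1 gene that this rule names is not reported here. Python 3.11.15, pandas 2.3.3, numpy 2.4.6, scipy 1.17.1 and matplotlib 3.10.9 were used. Small RNA libraries and day 7 were not used here.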

Additional observations from a re-analysis of the deposited data

How the results depend on the processing

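Of the 32 genes, 19 kept their call and direction under all 13 alternative fits that could test them. ANKRD1 is counted in the 19, although the filter fixed its direction and it was not tested with any day 3 library left out. The 20 higher and 3 lower calls became 17 and 1 without a filter, 22 and 5 on library totals, 21 and 5 with a variance trend, in edgeR and in DESeq2, and 8 and 1 (9 in all) with a 2-fold minimum; leaving out single libraries gave 17 to 18 higher and 2 to 4 lower. The 1 lower call without a filter and the 1 with a 2-fold minimum were both ANKRD1. For the other pathway genes, the 46 higher and 9 lower became 40 and 3 without a filter. With a 2-fold minimum they became 17 and 0 (17 in all), beside 10.2% and 7.60% of all genes tested. VGLL3, which needed its day 5 libraries to meet the filter, is among the 17. The 0 in limma did not depend on p, as the lowest log2 fold change of the other pathway genes was -0.83, short of a 2-fold fall. It was also 0 in edgeR and DESeq2. Directions turned for genes that had not passed: STK4 (0.03) and TEAD4 (0.0195) on library totals, WWC2 in edgeR (-0.00619) and DESeq2 (-0.00686), and WWC2 (-0.0230 to 0.0516), TEAD4 (-0.169 to 0.0899) and CCN2 (-0.443 to 0.124) over the fits without single libraries. With a pseudocount of 1, each of the 9 ratios moved by less than its SD pooled over both days. Division by length cannot move a difference between days. Leaving out a single library of 3 cannot move it by as much as that SD, so neither is a check on the ratios. Library totals moved the median of all genes from 0.01 to 0.05; the cause of these differences was not tested.

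The replicate number as a block gave 17 higher and 3 lower calls, with those of LATS1, MOB1B and TAOK1 lost (limma, adjusted p = 0.112, 0.074 and 0.105). Libraries with the same number showed no visible shared deviation. Deviations from the day means correlated at -0.011, 0.034 and 0.023 between them (across 20129 genes, which are not independent). Between libraries with different numbers the correlations ran from -0.052 to 0.033. Whether cultures with the same number were grown together is not stated, and these values cannot show it.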
